A study of Mus musculus with 30 samples.

Results

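The protein phosphatases described here are the genes whose array symbol starts with Ptpn, Ptpr, Ptp4 or Ptpe, with Ptpla, with Ppm1 or with Ppp1 to Ppp6, other than 1 gene of the PPM family that is not reported here. They were chosen by name, with no measured value in the rule, though earlier results of these data were known at the time. The rule found 106 genes among the 21689 named genes on the array, and 214 of its 33453 named probes. By role the set holds 3 catalytic subunits of protein phosphatase 1 (PP1) and 26 of its regulators, 16 genes with PP2A symbols, 5 subunits of calcineurin, 5 of PP4 to PP6, 8 metal-dependent phosphatases (PPM), 16 non-receptor and 21 receptor tyrosine phosphatases, 3 prenylated tyrosine phosphatases of the PRL family, Ptpla and 2 others. The symbol rule is wider than the enzyme class. Ptpla is today Hacd1, a dehydratase of fatty acid elongation, and Ptpns1 is today Sirpa, a receptor that binds tyrosine phosphatases, so that neither is a phosphatase. Ppp2cz, counted with PP2A by its symbol, is today Ppm1j, a PPM phosphatase.

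Total RNA came from mouse embryonic fibroblasts (MEFs), connective tissue cells grown from embryos, that were wild type or lacked the stress kinase p38α, the product of Mapk14 (p38α-/-). By the study's methods the MEFs of both genotypes were immortalized, so a difference of genotype and one between the immortalized cultures cannot be told apart. Wild type MEFs were stressed for 45 min with anisomycin at 25 ng/ml, which inhibits the ribosome, for 45 min with TNFα at 100 ng/ml, an inflammatory cytokine, or with 100 mM NaCl for 45 min, 2 h or 8 h. Each of these 5 stresses was given with and without SB203580, which inhibits p38, and 1 further wild type group had SB203580 only. Groups of p38α-/- MEFs were left untreated, or had the same dose of anisomycin or TNFα for 45 min or of NaCl for 2 h. Each of the 15 groups had 2 arrays, which the study describes as independent experiments, and every array carried the sample in Cy5 and the same reference, pooled from untreated wild type cultures, in Cy3, with no dye swap. Methods and sample labels differ on SB203580: 10 µM given 30 min before the stress in the methods, and 10 mM for 2 h in the labels. All values below are log2 ratios of sample to pool, so that 1 is 2-fold, and in RNA of whole cultures fewer cells with a transcript and less transcript per cell cannot be told apart.

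Protein phosphatases remove the phosphate groups that kinases add. The serine and threonine phosphatases of the PPP family are a few catalytic subunits whose targets are set by many regulatory subunits and inhibitors, whereas PPM enzymes act as monomers and tyrosine phosphatases each carry their own targeting domains. Several of them, among them PP2A, Ppm1a, Ptpn7 and Ptprr, are known to dephosphorylate MAP kinases, and PP1 bound to Ppp1r15 proteins dephosphorylates the translation factor eIF2α.

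The largest rises were at 8 h of NaCl, in Ppp1r2, Ptp4a2, 1 probe of Ptprb and the probes of Ptp4a1, which was not tested as a gene there. Ppp2ca also rose against the pool, but its values overlapped those of other groups and it did not pass against 45 min of NaCl. Promoters are shown for Ppp1r2, Ptp4a2, Ptp4a1 and Ppp2ca, the 4 members that rose furthest against the pool at 8 h among those with a promoter in the table used. Each line is the stretch of 250 bases before a RefSeq transcription start on the mouse build GRCm38.p6, written 5′ to 3′ on the gene's own strand: chr16:31275278-31275527 for Ppp1r2 (minus strand), chr4:129820229-129820478 for Ptp4a2 (plus strand), chr1:30949756-30950005 for Ptp4a1 (minus strand) and chr11:52098574-52098823 for Ppp2ca (plus strand). A gene can have other starts. The RefSeq bounds of Ptp4a2 and Ptp4a1 begin further upstream, at chr4:129811165 and chr1:30949877, so their stretches precede internal starts. Capitals mark TGACG, the core of the cAMP response element, on either strand.
Ppp1r2: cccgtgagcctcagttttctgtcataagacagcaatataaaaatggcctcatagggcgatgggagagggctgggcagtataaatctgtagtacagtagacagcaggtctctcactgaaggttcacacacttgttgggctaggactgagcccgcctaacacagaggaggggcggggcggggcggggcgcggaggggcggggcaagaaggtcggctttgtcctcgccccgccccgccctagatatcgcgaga
Ptp4a2: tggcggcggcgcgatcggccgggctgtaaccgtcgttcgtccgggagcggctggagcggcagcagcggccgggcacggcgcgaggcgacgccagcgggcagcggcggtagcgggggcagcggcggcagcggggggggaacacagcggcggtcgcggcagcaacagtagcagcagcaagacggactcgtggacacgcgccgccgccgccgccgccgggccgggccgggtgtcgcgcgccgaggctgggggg
Ptp4a1: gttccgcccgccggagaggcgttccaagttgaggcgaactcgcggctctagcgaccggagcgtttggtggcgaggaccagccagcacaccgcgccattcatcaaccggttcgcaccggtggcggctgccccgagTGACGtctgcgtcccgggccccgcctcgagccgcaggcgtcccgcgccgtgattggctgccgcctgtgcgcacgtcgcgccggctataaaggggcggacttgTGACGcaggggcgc
Ppp2ca: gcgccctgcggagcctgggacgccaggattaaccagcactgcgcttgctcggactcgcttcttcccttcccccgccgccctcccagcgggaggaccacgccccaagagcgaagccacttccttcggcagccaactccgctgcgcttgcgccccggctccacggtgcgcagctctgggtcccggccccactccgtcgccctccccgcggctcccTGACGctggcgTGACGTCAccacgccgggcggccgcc
The 4 stretches differ in composition, from 59.2% G and C with 15 CpG pairs for Ppp1r2 to 80.0% with 46 CpG pairs for Ptp4a2. TGACG stands 2 times before Ptp4a1 and 3 times before Ppp2ca, where the last pair overlaps on opposite strands, and does not occur in the other two. Over 32851 promoters of the same length in the table, 17.8% hold TGACG, and over the 108 promoters listed for 82 members 30.6% do. The AP-1 letters TGANTCA (in 6.75% of all promoters and 1.85% of those of members) and the letters GGAAA, found in sites of the calcineurin-regulated factor NFAT (55.6% and 48.1%), do not occur in these 4 stretches on either strand.

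The arrays set limits that bear on single members. Spots marked as outliers in either channel, 6.775% to 44.84% of an array, were left out, so a gene with several probes could be averaged over different probes on different arrays, and only 46 of the 106 members had a value on all 30 arrays. Single probes were therefore also fitted with these spots kept; between the 2 arrays of a group the median difference over member probes was 0.22 where neither spot was marked, 0.18 where 1 was and 0.15 where both were. In Cy5, 102 members were well above background on every array. The Mapk14 probe read between 0.03 and 1.31 in wild type MEFs and between -2.24 and -0.94 in p38α-/- MEFs, with no overlap, although the sources used here do not say whether it lies in the deleted part. Mapk14 was itself higher in wild type MEFs after 8 h of NaCl (1.11 ± 0.24 SE, n = 2, adjusted p from limma = 0.0078). All 11 fibroblast markers tested were above background on every array, but so were 7 of 7 leukocyte and 3 of 4 endothelial ones, so detection does not separate cell types on these arrays. Ppp1r15a is listed under its older symbol Myd116, outside the naming rule, and lay between -0.78 and 0.77 over the arrays.

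Members were called where limma's adjusted p, over all genes measured on the arrays compared, was below 0.05. In wild type MEFs after 8 h of NaCl 11 members rose and 9 fell among 77 tested, beside 11.0% of all genes higher and 11.2% lower, so the counts were near the share in all genes. The members that rose at least 2-fold were 5 (Ppp1r2, Ptp4a2, Ptprb, Ppp2ca and Ptpla), against 2.47% of all genes. After anisomycin 2 of 70 rose and 9 fell (all genes 5.72% and 6.28%), after TNFα 3 of 73 rose and 7 fell (5.25% and 5.72%), after 45 min of NaCl 0 of 64 rose and 5 fell (4.69% and 5.19%), and after 2 h of NaCl 3 of 89 rose and 3 fell (5.24% and 4.69%). SB203580 alone gave 7 higher and 18 lower of 76 (14.7% and 11.8%), and untreated p38α-/- MEFs 3 higher and 15 lower of 81 (8.02% and 6.96%). With the replicate number as a block within each genotype, 18 members in place of 11 were called with anisomycin, and the 5 stress comparisons together gave 79 calls in place of 52. Lower calls outnumbered higher ones among members with anisomycin, TNFα, 45 min of NaCl, SB203580 and the genotype, whereas all genes were split more evenly. With outlier spots kept and probes fitted singly this contrast was gone for anisomycin (25 member probes higher and 55 lower, beside 2633 and 6187 of all probes) and TNFα (20 and 42, beside 2520 and 5590). For 45 min of NaCl 8 member probes were higher and 47 lower, beside 2019 and 4927 of all probes. In that fit all probes also had more lower than higher calls with SB203580 alone (28 and 77 for members, 5342 and 9642 for all) and in untreated p38α-/- MEFs (22 and 53, beside 3159 and 5854). In all, 52 of the 106 members were called in at least 1 of 19 comparisons, and 10 (Ppp1ca, Ppp1r1b, Ppp2cz, Ppp2r1a, Ppp2r2c, Ppp2r5b, Ppp2r5d, Ptpn18, Ptpn5 and Ptpra) could not be tested in any because of marked spots. The share of all genes called in at least 1 comparison was not counted, so the 52 cannot be read as many or few.

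**Figure D1:**
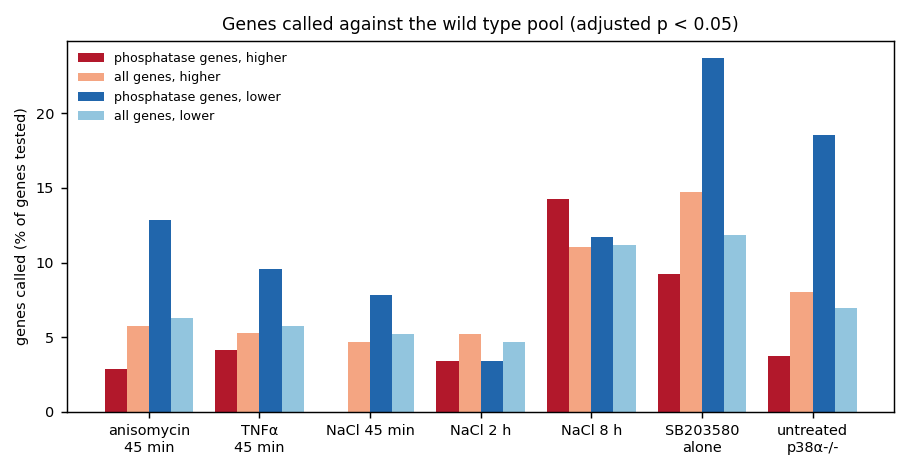
Share of genes called higher and lower (adjusted p below 0.05 from limma) in each of 7 comparisons with the pool, in percent, for the phosphatase members and for all genes tested. With SB203580 and in untreated p38α-/- MEFs the members had more lower than higher calls (18 against 7 and 15 against 3).

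**Figure D2:**
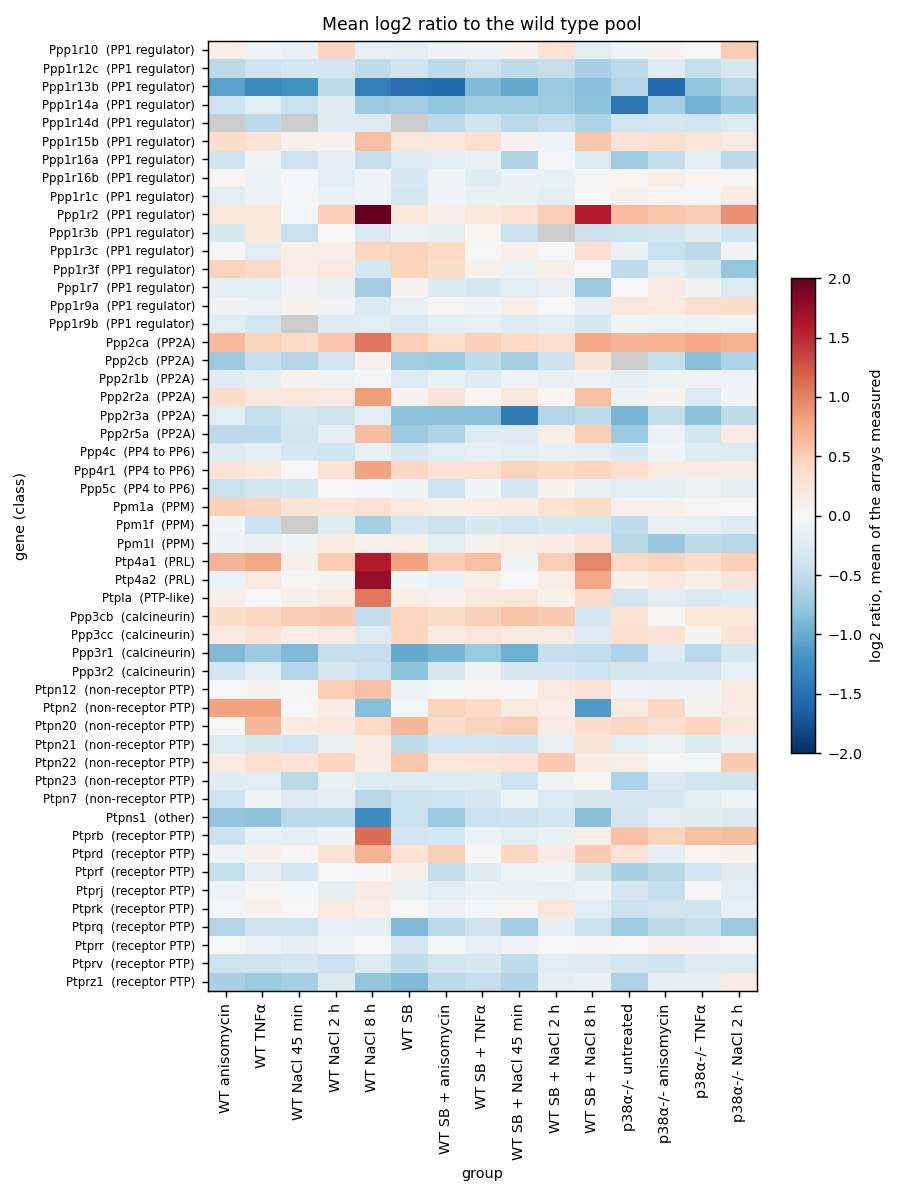
Mean log2 ratio to the pool of the 52 members called in at least 1 comparison (rows) in each of the 15 groups (columns, 2 arrays each), on a colour scale from lower to higher than the pool, with grey where no value was measured. The 8 h NaCl column holds the highest values, 2.04 for Ppp1r2 and 1.74 for Ptp4a2.

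Among the regulators of PP1, Ppp1r2, which encodes an inhibitor of the PP1 catalytic subunit, had the largest rise at 8 h of NaCl. Its 4 probes named by RefSeq transcripts read 1.79 to 2.42 on replicate 1 and 2.14 to 2.63 on replicate 2 at 8 h, between -0.23 and 0.44 at 45 min and between 0.21 and 1.24 at 2 h. No 8 h value overlapped an earlier one. The gene as a whole rose by 2.04 ± 0.20 SE (n = 2, adjusted p = 2.2e-06), or 4.13-fold, and the 4 probes by 1.96 to 2.52. The fifth Ppp1r2 probe read 0.02 and -0.14 at 8 h (adjusted p = 0.81) and did not take part. With SB203580 before the 8 h of NaCl the 4 probes read 1.36 to 2.15, and the difference from NaCl alone was -0.52 to -0.42 per probe without passing the test (adjusted p = 0.87 to 1.0).

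Of the PRL phosphatases, small prenylated enzymes of the cell membrane, Ptp4a1 and Ptp4a2 rose at 8 h. The 3 probes of Ptp4a2 read 1.69 and 1.73, 1.96 and 1.98, and 1.20 and 1.47 at 8 h, against -0.18 to 0.17 at 45 min and 2 h. The gene rose by 1.74 ± 0.12 SE (n = 2, adjusted p = 2.6e-07). Ptp4a1 was not tested as a gene at 8 h, since all 4 of its probes were marked on replicate 2. With these spots kept its probes read 1.32 to 1.91 on replicate 1 and 1.66 to 2.52 on replicate 2, and all 4 rose, by 1.49 to 2.22 (adjusted p = 8.4e-08 to 1.2e-06 over probes). The Ptp4a1 probes were between 0.17 and 1.06 at 2 h and between -0.23 and 0.40 at 45 min. Ptp4a3 was called in none of the 15 comparisons in which it was tested, and its 29 measured arrays lay between -0.31 and 0.10.

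The 8 h value of Ptp4a2 was lower with SB203580. In the SB203580 plus NaCl group its probes read 0.96 and 1.05, 1.16 and 1.28, and 0.54 and 0.66, each below both arrays of NaCl alone. The gene differed by -0.96 ± 0.18 SE (n = 2 against 2, adjusted p = 0.041). That size rests partly on which probes were averaged: replicate 2 of the combined group kept only the Ptp4a2 probe with the smallest ratios, while replicate 2 of NaCl alone had lost it. Probe by probe, with all spots kept, the Ptp4a2 differences were -0.75 to -0.71 and missed the threshold over all probes (adjusted p = 0.097 to 0.17). The Ptp4a1 probes differed by -0.81 to -0.39 (adjusted p = 0.43 to 1.0).

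Ptprb, a receptor tyrosine phosphatase known from blood vessel endothelium, had the largest called difference between NaCl with and without SB203580. Its probe A_51_P215475, the only 1 of 3 above background on every array and never marked as an outlier, read 2.89 and 3.08 at 8 h of NaCl and 0.71 and 1.13 with SB203580 added. The 18 wild type arrays without 8 h of NaCl lay between -0.66 and 0.49, with a median of 0.14. The 3 sets of arrays did not overlap. This Ptprb probe rose by 2.99 ± 0.24 SE at 8 h (7.94-fold, adjusted p = 1.2e-07), and the effect of SB203580 on it was -2.07 ± 0.35 SE (adjusted p = 0.017). Averaged with the other two, above background on 9 and 1 arrays, the Ptprb gene value was 1.12 ± 0.14 SE at 8 h (adjusted p = 1.3e-05) and the SB203580 effect -0.98 ± 0.19 SE (adjusted p = 0.042). These SB203580 effects compare levels at 8 h, without subtracting SB203580 alone. With SB203580 alone the Ptprb gene value was already below the pool (-0.39 ± 0.14 SE, adjusted p = 0.043). The endothelial markers were read by detection only, and their part in the Ptprb result was not tested. Of the 68 members tested, Ptp4a2 and Ptprb were the 2 called for SB203580 plus 8 h of NaCl against NaCl alone (0.206% of all genes), and over probes the count was 1 of 214, the Ptprb probe (0.114% of all probes).

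**Figure D3:**
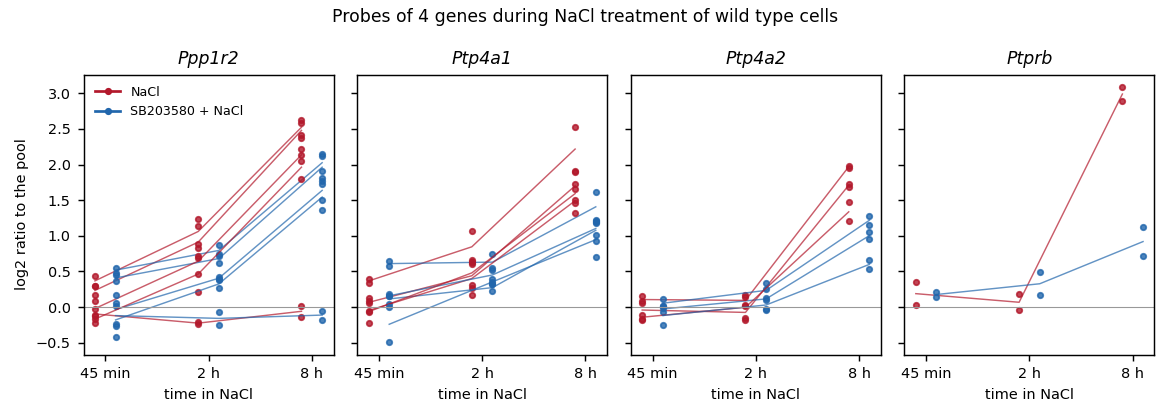
Log2 ratio to the pool at 45 min, 2 h and 8 h of NaCl, alone (red) and after SB203580 (blue), for the probes of Ppp1r2, Ptp4a1, Ptp4a2 and Ptprb above background on all arrays; points are arrays and lines join group means. Ptprb reached 2.89 and 3.08 at 8 h with NaCl alone and 0.71 and 1.13 after SB203580.

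The other members that rose at 8 h changed less. Ppp2ca, the α catalytic subunit of PP2A, had 1 probe at 0.78 and 1.36 and another whose mean was 0.77, and rose by 1.07 ± 0.16 SE (adjusted p = 0.00015). Its first probe lay above the pool in every group (0.25 to 1.07 outside 8 h of NaCl alone), so its ranges overlapped. Ptpla rose by 1.06 ± 0.20 SE (adjusted p = 0.00075), through probe A_51_P393699 (1.06 and 1.67), while its other probe was at -0.33 ± 0.12 SE (adjusted p = 0.058). The PP2A targeting subunit Ppp2r2a rose by 0.84, the PP4 regulator Ppp4r1 by 0.80, Ptprd by 0.69, the eIF2α phosphatase subunit Ppp1r15b by 0.60, Ptpn12 by 0.59 and the glycogen targeting subunit Ppp1r3c by 0.43, all with adjusted p of 0.043 or less. The probes of Ptprd disagreed: 3 of its 6 rose by 1.21 to 1.77, 1 fell by 0.89 and the others did not pass. Of the Ppp1r3c probes 1 rose by 0.94 and the other was at -0.07.

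Members that fell at 8 h included Ppp1r13b (-1.37 ± 0.29 SE, adjusted p = 0.0055), which encodes the p53 partner ASPP1, and Ptpns1 (-1.25 ± 0.15 SE, adjusted p = 1.3e-05). Ptpns1 probe A_52_P170635 read -2.09 and -1.52 at 8 h and -0.92 and -0.60 with SB203580, against -0.27 to 1.04 on the other 26 arrays, so that the 4 arrays of 8 h NaCl stood below all others. The remaining falls were in Ptpn2 (-0.86), Ptprz1 (-0.79), the inhibitor of myosin phosphatase Ppp1r14a (-0.73), the PP1 regulator Ppp1r7 (-0.69), Ppm1f (-0.67), the myosin phosphatase subunit Ppp1r12c (-0.51) and the calcineurin catalytic subunit Ppp3cb (-0.49). Fitted singly, 38 member probes were called higher and 36 lower of 214 at 8 h, 34.6% against 25.4% of all probes.

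Because the pool is the baseline of every wild type value, 8 h of NaCl was also set against 45 min of NaCl, in which the pool cancels; this comparison was chosen after the data were seen. Of 57 members tested 7 rose and 1 fell, beside 7.53% of all genes in either direction, and the median member differed by 0.20 against 0.01 for all genes. Ppp1r2 rose by 2.07 ± 0.29 SE (adjusted p = 0.00022), Ptp4a2 by 1.72 ± 0.18 SE (adjusted p = 3.8e-05) and Ptprb by 1.30 ± 0.19 SE (adjusted p = 0.00035). Ptpla (0.96), Ppp2r2a (0.62), Ptpn12 (0.56) and Ptpn21 (0.56) rose as well, and Ppp1r7 fell by 0.62. Over probes 27 rose and 8 fell of 214, 16.4% against 8.14% of all probes. Ppp2ca was tested and did not pass. Ppp1r13b could not be tested here, since both of its probes were marked on replicate 1 of 45 min of NaCl. Its main probe A_51_P130409 lay below the pool on all 30 arrays, from -2.94 to -0.66.

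SB203580 plus 8 h of NaCl was also set against SB203580 alone, to view the late levels with the inhibitor present. This comparison was likewise added after the data were seen. By the labels SB203580 alone was given for 2 h, so the groups can differ in time as well as in NaCl. The part of each cannot be told apart. Of 66 members 3 rose and 3 fell (7.78% of all genes), and of 214 probes 20 rose and 8 fell (13.1% against 8.47% of all probes). Ppp1r2 rose by 1.36 ± 0.29 SE (adjusted p = 0.0063), the PP2A subunit Ppp2r5a by 1.21 ± 0.33 SE (adjusted p = 0.031) and Ptpn21 by 0.77. Ppp1r7, Ppp3cb and Ppp3cc fell, by 0.77, 0.77 and 0.68. The 3 probes of Ptp4a2 rose by 0.59 to 1.38 and the Ptprb probe by 1.47 ± 0.35 SE (adjusted p = 0.011). The Ptp4a1 probes, already 0.29 to 1.42 above the pool with SB203580 alone, differed by 0.35 to 0.55 and did not pass (adjusted p = 0.085 to 0.40).

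At 2 h of NaCl the response of the members was led by 1 probe of Ppp1r10, a nuclear targeting subunit of PP1. Probe A_51_P243609 read 1.82 and 1.56 with NaCl alone, 1.78 and 1.67 with SB203580, and 1.38 and 2.18 in p38α-/- MEFs. On the other 24 arrays it lay between -0.49 and 0.95, with a median of -0.12, so that the 6 arrays of 2 h NaCl stood above all others. It rose by 1.69 ± 0.17 SE in wild type MEFs (3.23-fold, adjusted p = 3.0e-06) and by 2.01 ± 0.24 SE in p38α-/- MEFs against untreated p38α-/- MEFs (adjusted p = 0.00014). The SB203580 effect on it was 0.03 ± 0.24 SE and the difference of its response between genotypes 0.32 ± 0.29 SE (adjusted p = 1.0 and 0.51). At 8 h it read -0.18 and -0.21, and the earlier value at 45 min was 0.95 and 0.27. The other Ppp1r10 probes read -0.67 to 0.14 in the 2 h groups, and the average of the gene was 0.42 ± 0.12 SE (adjusted p = 0.038). The other members called at 2 h were Ppp2ca (0.54) and Ppp3cb (0.53), higher, and Ptpns1 (-0.54), Ptprv (-0.44) and Ppp4c (-0.39), lower. From 45 min to 2 h of NaCl none of 61 members passed, with 3 at an unadjusted p below 0.05 and 0.0540% of all genes called.

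**Figure D4:**
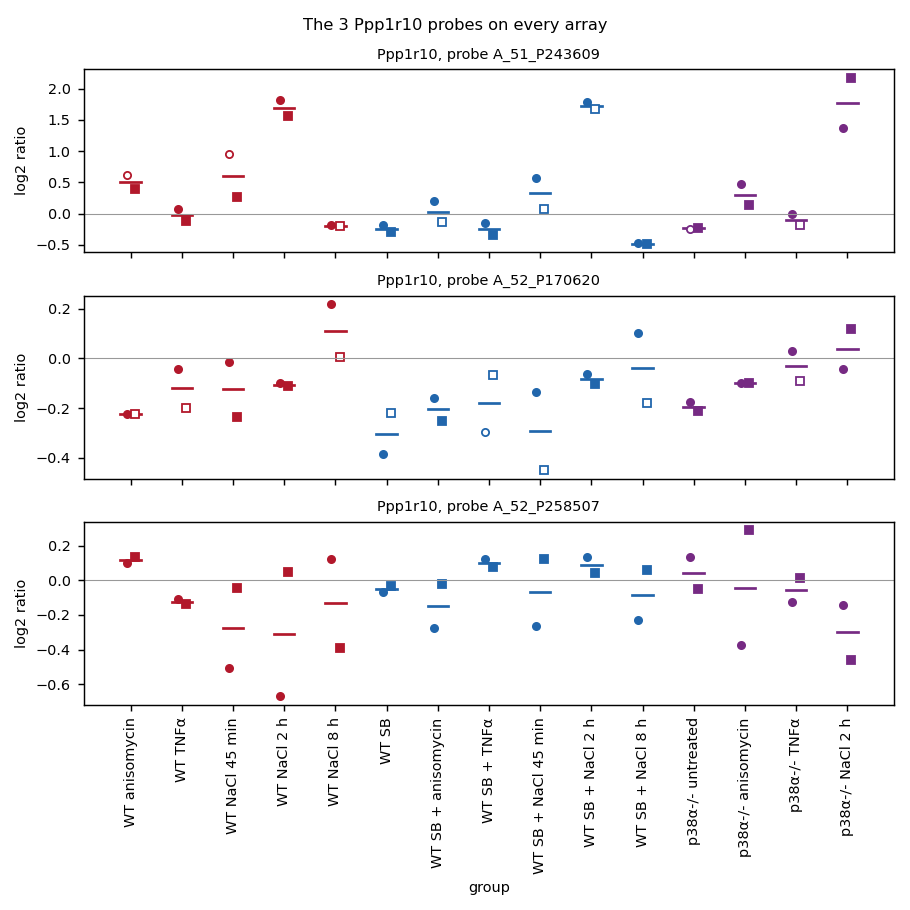
Log2 ratio to the pool of the 3 Ppp1r10 probes in the 15 groups, each point an array. Probe A_51_P243609 stood at 1.38 to 2.18 in the 3 groups given NaCl for 2 h and at -0.49 to 0.95 elsewhere. In these 3 groups the other probes read lower, on either side of the pool.

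Anisomycin and TNFα raised few members. Ptpn2, the T cell tyrosine phosphatase of JAK and STAT signalling, was called higher with both, at 0.80 ± 0.24 SE (adjusted p = 0.037) and 0.81 ± 0.24 SE (adjusted p = 0.036). The call rests on probe A_52_P403484, which read 0.84 and 0.77 with anisomycin, 0.81 and 0.81 with TNFα, and -0.98 and -1.30 after 8 h of NaCl. The other Ptpn2 probe was marked on 19 arrays and read -0.20 and -0.21 on average with the 2 agents (adjusted p = 0.19 for each). Ptp4a1 was called with TNFα at 0.77 ± 0.20 SE (adjusted p = 0.025), and over its 4 probes with all spots kept the values were 0.31 to 0.93 with TNFα and 0.49 to 1.09 with anisomycin. Ppm1a, which acts on p38 and other MAP kinases, was called with anisomycin at 0.48 ± 0.14 SE (adjusted p = 0.034), with probes at -0.14, 0.41 and 0.80. Ptpn20 was called higher with TNFα (0.67). Some members were called lower with several treatments, and all of these comparisons share the pool. The calcineurin regulatory subunit Ppp3r1 was at -0.88 with anisomycin, -0.73 with TNFα, -0.88 with 45 min of NaCl and -1.01 with SB203580 alone. Ptpns1 was at -0.79, -0.81, -0.54 and -0.45 in the same groups, and Ppp1r13b was called lower with TNFα at -1.27 ± 0.29 SE (adjusted p = 0.018). For Ppp1r13b the 2 TNFα arrays averaged different probes (-0.95 and -1.59).

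SB203580 without stress gave 25 called members of 76 tested, beside 14.7% of all genes higher and 11.8% lower. This count depended strongly on replicate 1 of the group, as given in the closing sections. The largest falls were in Ppp1r13b (-1.53 ± 0.29 SE, adjusted p = 0.0035), Ppp3r1 (-1.01 ± 0.23 SE, adjusted p = 0.0043), Ptprq (-0.88), Ptprz1 (-0.88), the testis-type calcineurin subunit Ppp3r2 (-0.81), Ppp2r5a (-0.73), Ppp1r14a (-0.70) and the PP2A catalytic subunit Ppp2cb (-0.70). Those called higher were Ptp4a1 (0.80), Ptpn20 (0.66), Ptpn22 (0.56), Ppp2ca (0.49), Ppp1r3c (0.46), Ppp3cb (0.43) and Ppp3cc (0.43). The probes of Ppp2r5a went both ways with SB203580, at -1.07, -1.07 and 0.48, each past the threshold. Several of the members that fell lay below the pool almost everywhere. Ppp1r12c was below it on 25 of 25 measured arrays, Ppp1r13b on 23 of 23, Ppp4c on 29 of 30, Ppp3r1 on 28 of 30 and Ptpns1 on 28 of 30. With a single pool and no dye swap, a difference in the treated cells and one of the pool or of the dyes cannot be told apart for such members. Of the 46 members measured on every array 1, Ppp3r2, kept 1 sign throughout (5.06% of all genes did).

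Ptprb and Ppm1l differed between the genotypes over the 3 stresses, and Ppp1r14a did so only with a term for replicate or scan day. The Ptprb probe A_51_P215475 read 2.24, 2.49, 1.74 and 2.30 on the replicate 1 arrays of untreated, anisomycin, TNFα and NaCl treated p38α-/- MEFs, and 1.40, 1.48, 1.19 and 1.43 on those of replicate 2. All 8 arrays lay above the 18 wild type arrays without 8 h of NaCl, and above the 2 with SB203580 and 8 h of NaCl, but below the 2 arrays of 8 h NaCl alone. It was higher in untreated p38α-/- MEFs by 1.82 ± 0.24 SE (adjusted p = 5.1e-05) and over the 3 stresses by 1.71 ± 0.20 SE against matched wild type groups (adjusted p = 2.2e-05). Within the scan day that held both genotypes the Ptprb probe difference was 2.21.

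Ppm1l, a PPM phosphatase of the stress kinase pathway above p38 and JNK, was lower in p38α-/- MEFs. Its probe A_51_P413111 read -1.18 to -0.50 on the 8 p38α-/- arrays and -0.15 to 0.53 on the 22 wild type arrays, and A_51_P212515 read -0.99 to -0.46 and -0.03 to 1.76. Neither probe's genotypes overlapped. Over the 3 stresses Ppm1l differed by -0.60 ± 0.11 SE (adjusted p = 0.0014), its 2 probes by -0.87 each (adjusted p = 2.5e-05 and 0.0046) and by -0.80 and -0.73 within the shared scan day. The third Ppm1l probe, above background on 22 arrays, differed by -0.07 (adjusted p = 0.84).

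Ppp1r14a was the member furthest below the pool in untreated p38α-/- MEFs, with -1.35 and -1.59 on the 2 arrays (-1.47 ± 0.26 SE, adjusted p = 0.0010). Over all arrays Ppp1r14a was above the pool only on replicate 2 of wild type 2 h NaCl (0.14). It was also called lower in wild type MEFs with SB203580 alone (-0.70) and at 8 h of NaCl (-0.73). For its value against the pool, a difference in the cells and one of the pool or dyes cannot be told apart. In the stressed p38α-/- MEFs it read -1.20 with anisomycin, -1.63 with TNFα and -1.1 with NaCl on the replicate 1 arrays, but -0.14, -0.27 and -0.40 on those of replicate 2. The stressed groups therefore overlapped with wild type MEFs, and the Ppp1r14a difference of -0.50 ± 0.21 SE did not pass (adjusted p = 0.14), whereas with a block for the replicate number it did (adjusted p = 0.040). With a term for the scan day the Ppp1r14a difference was -0.88 and passed (adjusted p = 0.0063), and within the scan day that held both genotypes it was -1.08. Further members lower in untreated p38α-/- MEFs were Ppp2r3a (-0.92), Ppp2r5a (-0.73), Ppp1r16a (-0.70), Ptprf (-0.64), Ptpn23 (-0.62) and Ppm1l (-0.55), and those higher were Ppp1r2 (0.63), Ptprb (0.59) and Ppp3cc (0.34). For Ppp2r3a 1 probe read -2.18 to -0.40 in every group and the other was at 0.04 in untreated p38α-/- MEFs.

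Over the 3 stresses 7 of 60 members differed between the genotypes, 3 higher and 4 lower in p38α-/- MEFs (8.81% of all genes; 12 members with a replicate block), and 24 of 214 probes did (11.4% of all probes). Beside Ptprb (0.78 ± 0.11 SE, adjusted p = 0.00021) and Ppm1l, these were Ptpns1 (0.46), the PP1 targeting subunit Ppp1r9a (0.39), Ppp1r3f (-0.76), Ptprk (-0.39) and Ppp2r2a (-0.35). With a term for the scan day Ptprb (1.00, adjusted p = 8e-06), Ppm1l (-0.50, adjusted p = 0.0038) and Ppp1r9a (adjusted p = 0.040) passed, as did Ppp1r14a (-0.88, adjusted p = 0.0063) and Ppp4r2 (0.62, adjusted p = 0.021), which had not been called without it, whereas Ptpns1 (0.17, adjusted p = 0.34), Ppp2r2a (adjusted p = 0.32), Ppp1r3f (adjusted p = 0.073) and Ptprk (adjusted p = 0.072) did not. Ppp1r9a probe A_52_P167843 read 0.38 to 2.23 in p38α-/- MEFs and -0.24 to 0.48 in wild type MEFs, a difference of 1.16 ± 0.21 SE over the stresses (adjusted p = 0.0018). Ppp1r3f was not well above background on either p38α-/- array of NaCl, so its value there is only a bound.

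No member passed for stress against no stress within p38α-/- MEFs: 0 of 78 with anisomycin (0.0847% of all genes), 0 of 72 with TNFα (0.0780%) and 0 of 79 with 2 h of NaCl (1.08%), with 4, 3 and 5 members at an unadjusted p below 0.05. Over probes 0, 0 and 2 of 214 passed, the 2 with NaCl being the Ppp1r10 probe above and 1 of Ppp2r5a (0.96 ± 0.22 SE, adjusted p = 0.037; 1.08% of all probes). SB203580 before anisomycin (0 of 68; 0.0204%), TNFα (0 of 72; 0%), 45 min of NaCl (0 of 56; 0%) and 2 h of NaCl (0 of 82; 0%) also changed no member past limma's threshold, with 2, 0, 1 and 1 members at an unadjusted p below 0.05.

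The response to each stress was compared between the genotypes directly. With outlier spots left out, no member passed: 0 of 66 with anisomycin (0.542% of all genes), 0 of 64 with TNFα (0.450%) and 0 of 75 with 2 h of NaCl (0%), although 17, 11 and 12 members had an unadjusted p below 0.05 and a replicate block gave 4 calls over the 3 stresses. With these spots kept, 20, 19 and 7 of 214 probes passed, beside 7.78%, 8.54% and 4.21% of all probes, or close to the share of all probes in each. All but 1 of the 20 with anisomycin and all 19 with TNFα were more positive in p38α-/- MEFs, as were 2263 of the 2602 called over all probes with anisomycin and 2438 of 2856 with TNFα, so that the direction was shared with the whole array. They included probe A_51_P432764 of Ptpns1 (2.39 ± 0.41 SE with anisomycin and 2.26 ± 0.41 SE with TNFα), A_51_P130409 of Ppp1r13b (2.55 ± 0.49 SE and 2.28 ± 0.49 SE) and A_52_P108952 of Ppp2r5a (1.28 ± 0.27 SE and 0.99 ± 0.27 SE). For these comparisons the wild type baseline was the pool, whereas the p38α-/- baseline was a pair of arrays, so an offset between the pool or dye and the samples cancels in the p38α-/- response only. Of these genes Ptpns1 and Ppp1r13b lay below the pool in nearly every group.

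The remaining catalytic subunits had few calls as genes, while single probes of some of them passed. Ppp1cb was above the pool on its 11 measured arrays (0.09 to 1.13) and was at 0.42 at 8 h of NaCl without passing (adjusted p = 0.18). Its single probe, with all spots kept, rose by 0.73 at 2 h of NaCl (adjusted p = 0.0024). Ppp1cc (-0.33 to 0.92), Ppp3ca (-0.38 to 0.58) and Ppp6c (-0.40 to 0.61) were as genes called in none of the comparisons in which they were tested, and Ppp1ca, not tested, lay between -0.15 and 0.23 on 14 arrays. At 8 h of NaCl 1 probe of Ppp3ca rose by 0.79, and the probes of Ppp6c disagreed, with 1 higher (0.44) and 1 lower (-0.42) past the threshold. Ppp5c was called once, at -0.44 with anisomycin (adjusted p = 0.020), and Ppp4c was called in 5 of the pool comparisons, at -0.26 to -0.39. PP2A's β catalytic subunit Ppp2cb differed in time: its 2 probes rose from 45 min to 8 h of NaCl by 0.95 and 1.02 (adjusted p = 0.0011 and 0.0082), and reached 0.10 and 0.43 relative to the pool at 8 h. Of the calcineurin catalytic subunits, 1 probe of Ppp3cb fell by 0.91 from 45 min to 8 h (adjusted p = 0.0029) and 1 of Ppp3cc by 0.90 (adjusted p = 0.0078), while the other probes of both genes did not pass.

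Among the tyrosine phosphatases known to act on MAP kinases, Ptpn7 was lower with anisomycin (-0.42) and in untreated p38α-/- MEFs (-0.33), Ptprr was lower with SB203580 alone (-0.34), and Ptpn1 was called in none of 22 comparisons (-0.32 to 0.67 over arrays). Ptpn5, not tested, lay between -0.46 and 0.12 on 9 arrays. Ppm1b was not called in 14 comparisons. Ptprc, the CD45 phosphatase of blood cells, lay between -0.26 and 0.41 and was called in none of 22.

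Genes of neighbouring pathways outside the naming rule were read from fixed lists. Of 9 dual specificity MAP kinase phosphatases on the array, 4 of 5 tested rose with anisomycin, 1 of 5 with TNFα, 3 of 8 at 2 h of NaCl and 3 of 7 at 8 h, and none fell, beside 5.72%, 5.25%, 5.24% and 11.0% of all genes higher in these comparisons. The lists that follow hold few genes, and at 8 h 11.0% of all genes were higher and 11.2% lower, so that counts such as 2 or 1 of 9 are near the share in all genes. Dusp1 rose by 3.42 at 2 h of NaCl, Dusp10 by 1.87 and Dusp4 by 1.62, each more than the gene value of any member at that time. Of 6 partners of PP2A tested at 8 h of NaCl 4 fell and none rose, with Arpp19, whose product inhibits PP2A, at -1.04, and Lcmt1, the methyltransferase of its catalytic subunit, at -0.55. Of 9 genes around calcineurin and NFAT 2 rose and 1 fell at 8 h (Nfatc1 0.78, Nfat5 0.55, Dscr1l1 -0.58), and Dscr1, an inhibitor of calcineurin, rose by 0.88 at 2 h. Of 4 genes of eIF2 phosphorylation tested at 8 h 2 rose and 1 fell (Eif2s1 0.80, Eif2ak3 0.66, Eif2ak4 -0.41).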

How the data were processed

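RNA of 30 MEF samples was measured on 2-colour Agilent 44K arrays, Cy5 for the sample and Cy3 for the pool. The authors scanned them and extracted intensities with Feature Extraction (8.1.1.1 in the file headers, 9.1 in the submitters' notes), with spatial detrending, no local background subtraction, a linear and LOWESS dye normalization and surrogates for dim signals, and deposited the log10 ratio of the processed signals. They also deposited a series matrix of log2 values, used as an alternative.

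Control spots were dropped, as were spots flagged by the software as outliers in Cy5 or Cy3. The log10 ratios were turned to log2 and averaged over spots, then over probes of a gene. limma 3.58.1 in R 4.3.3 fitted 15 group means to all 30 arrays by empirical Bayes, with 15 residual degrees of freedom and Benjamini-Hochberg adjustment over all genes measured on the arrays compared. Wild type groups were tested against a ratio of 0, which leaves out the spread of the pool. Probes were also fitted singly, with marked spots kept; this fit and 3 comparisons between wild type groups were added after the data were seen. Tables and figures were made with Python 3.11.15, pandas 2.3.3 and matplotlib 3.10.9.

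Named were members called with at least a 2-fold change, the 10 largest where more passed, and listed catalytic subunits, MAP kinase and PRL phosphatases and PP1 and PP2A partners; other called members, and single probes of named members, were named after their values were seen. The members and all gene lists were chosen with earlier results of these data known. Members are not replicates of a condition, and those of 1 enzyme family can share sequence. All 106 members matched RefSeq names, 102 by current symbol and 4 by synonym, and promoters are RefSeq's on GRCm38.p6.

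The fit was tested on simulated data in which 200 genes differed by 2 on the log2 scale, with no smaller sizes tried. Noise was drawn independently for each array, without shared replicate, scan day, pool or dye effects, so the rates need not hold for the real arrays. For 8 h of NaCl, with 16378 genes, 98% of the changed genes were called and 5.31% of calls were unchanged genes; for untreated p38α-/- MEFs, with 16890 genes, these were 99% and 4.81%. Replicate numbers were checked by the correlation of the difference between the 2 arrays. All 55 pairs of wild type groups (0.133 to 0.645) and all 6 pairs of p38α-/- groups (0.151 to 0.447) exceeded 0.1, as did 6 of 44 pairs across genotypes, so numbers pair samples within a genotype. Within it they also follow scan days, 4 in all. The number of arrays limits the precision.

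Alternatives were normexp (offset 50) with loess, the series matrix, marked spots kept, the brightest probe, spots above background, centring, a replicate block, the scan day, fewer arrays in the fit, a 2-fold rule and each array left out.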

Additional observations from a re-analysis of the deposited data

Results flagged for a closer look

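The level after 8 h of NaCl differed between wild type MEFs with and without SB203580, by a test between these groups, for 2 members. SB203580 alone was not subtracted, so a difference of the response to NaCl was not tested. Ptprb was lower with the inhibitor by -0.98 ± 0.19 SE on the log2 scale (adjusted p from limma = 0.042), and Ptp4a2 by -0.96 ± 0.18 SE (adjusted p = 0.041). Both differences pointed the same way on every array, with the 2 arrays of each group not overlapping those of the other. For Ptp4a2 the single probes differed by -0.75 to -0.71, none past the threshold. The gene values of the 2 groups averaged different probes. Groups of 2 arrays are too small for a check of single outlying samples.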

How the results depend on the processing

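Of 118 called values 116 kept direction and call when dim spots were left out, 115 with centred arrays, 109 with the scan day as a block, 107 with normexp and 107 with outlier spots kept. All 118 kept their call with a replicate block. Since each group held 1 array of each replicate number, this block could change the spread but not the size or direction of these values. With the series matrix 99 kept their call, and with only the arrays of the comparison 3 did. With 1 array left out, 148 of 338 recomputed values kept their call and 190 did not pass. With the brightest probe, 56 of 71 were kept, and 4 turned sign: Ptpn21 with anisomycin (0.241), TNFα (0.0644) and SB203580 (0.0859), and Ptprb with anisomycin (0.0192). Apart from these 4, no called value changed sign under the alternatives run.

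For calls over the 5 wild type stresses (52), the number was 158 with the series matrix, 155 with outlier spots kept, 245 with single probes, 79 with a replicate block, 8 with the 2-fold rule and 0 with only the arrays compared. For 8 h of NaCl alone (20) it was 43, 38, 50 (single probes), 7 (2-fold rule) and 0. For SB203580 alone (25) it was 42 with the series matrix, 50 with outlier spots kept, 73 with single probes, 15 with the brightest probe, 2 with the 2-fold rule and 0. For untreated p38α-/- MEFs (18) the same settings gave 39, 39, 57, 11, 1 and 0. For the 3 added comparisons (14) they gave 28, 23, 40, 8, 5 and 0. For SB203580 plus stress (2) they gave 1, 1, 1, 1, 0 and 0. Between genotypes over the stresses (7) they gave 21, 15, 21, 4, 0 and 3, and a replicate block gave 12. For stress within p38α-/- MEFs (0), normexp gave 1 and the series matrix, outlier spots kept and single probes 2 each. For the difference of response (0), normexp gave 1, the series matrix 26, outlier spots kept 28, a replicate block 4, the scan day 2 and single probes 42. The cause was not tested, other than that single probes count genes with any called probe and that fewer arrays leave fewer degrees of freedom.

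With each array left out in turn, the counts ranged over 41 to 50 for the wild type stresses, 12 to 18 for 8 h of NaCl (12 without replicate 2), 1 to 28 for SB203580 (1 without replicate 1), 3 to 17 for untreated p38α-/- MEFs (3 without replicate 1), 10 to 17 for the added comparisons, 0 to 2 for SB203580 plus stress, 3 to 8 between genotypes (3 without the p38α-/- NaCl array of replicate 2) and 0 to 2 for the difference of response. They were 0 in each for stress within p38α-/- MEFs. Both calls for SB203580 plus 8 h of NaCl were lost without replicate 2 of NaCl alone or without either array of the combined group. An array left alone in its group was taken to have the spread of the remaining groups.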

Other observations

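Across the 15 group means, the genes with profiles most like that of Ppp1r2 were Ctdp1 (Pearson r = 0.965 across group means that share the pool), which encodes a phosphatase of RNA polymerase II, Kpnb1 (r = 0.962), a nuclear import receptor, and 2310061I04Rik (r = 0.961). These are descriptions over the same arrays, with no test.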
